A study of Mus musculus with 9 samples.

Results

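The genes of the perineuronal net and the brain's extracellular matrix were followed across the 3 layers of mouse piriform cortex, the primary cortical area for smell. The 10 genes were the lecticans Acan, Bcan, Ncan and Vcan, the link proteins Hapln1, Hapln2 and Hapln4, the tenascins Tnr and Tnc, and the receptor phosphatase Ptprz1. They were chosen by name, with earlier results of these data known. Each was represented by its transcript with the highest mean count over the 9 samples. All 10 passed the filter on low counts, among 15184 genes whose highest transcript was tested and 33984 genes with an annotated transcript. The samples were 3 replicates each of layers A, B and C, cut by laser capture from fresh-frozen brain sections of wild-type C57BL/6 mice labelled as 8 weeks old, and the study's methods state a somewhat higher age. The labels do not say which letter is which of the numbered layers, so the letters are used here. They also do not say that replicates came from separate animals, so p-values measure the spread between these samples, which may be technical.

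Lecticans are chondroitin sulfate proteoglycans that bind hyaluronan at one end and tenascins at the other. Link proteins clamp the lectican to hyaluronan, and tenascin-R cross-links lecticans, so that together they form the dense nets around some neurons and the looser matrix between cells. In adult cortex Acan and Hapln4 are known mainly from neurons and their nets, Bcan, Ncan and Hapln1 from both neurons and glia, Tnr and Hapln2 largely from the oligodendrocyte lineage, and Tnc, Vcan and Ptprz1 largely from astrocytes and oligodendrocyte precursors.

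Total counts ranged from 23104306 to 76471683 per sample. Mitochondrial ribosomal RNA took 55.3 to 70.2% of the counts in layer A, 12.8 to 28.1% in B and 20.5 to 57.1% in C. All 8 glutamatergic neuron markers were detected in every sample. Among them Slc17a7, the vesicular glutamate transporter of cortical excitatory neurons, had 70.6 to 314 normalized CPM, that is, counts relative to the library total after scaling between samples. Layer B replicate 3 stood apart from its group, with correlations over transcripts of 0.888 and 0.880 with replicates 1 and 2, against 0.978 between those 2. The other layers were not tighter than this throughout. Layer A replicates correlated at 0.894 to 0.913 with each other. Layer C replicate 2 correlated at 0.927 and 0.905 with replicates 1 and 3, against 0.960 between those 2. The GABAergic neuron markers of layer B replicate 3 summed to 305 normalized CPM, against 63.2 and 59.0 in the other replicates of layer B. Its oligodendrocyte markers summed to 242 against 48.3 and 51.3. Oligodendrocyte markers were also highest in replicate 3 of layer C (550 against 156 and 162) and of layer A (315 against 226 and 196). Calls on the 10 genes and on the other genes named that change without this sample are given beside the result.

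Layer A differed from the other layers in the make-up of the matrix transcripts. Compared with layer B, Tnc, Hapln1, Bcan, Vcan, Ptprz1 and Ncan were higher in layer A, by 2.11-fold for Ncan to 21.9-fold for Tnc. Hapln4 was lower in layer A, and Acan, Tnr and Hapln2 did not pass the test. Thus 6 of 10 genes were higher in layer A by an adjusted p-value under 0.05 (edgeR quasi-likelihood test, Benjamini-Hochberg adjustment over 56416 transcripts), whereas 13.2% of all genes were. In the other direction 1 of 10 was lower, against 7.65% of all genes. Every layer A sample lay above every layer B sample for 6 of 10 genes and below for 1, whereas this was so for 19.3% and 18.9% of all genes. The same 6 genes were higher and the same gene lower against layer C, where 9.33% of all genes were higher and 5.47% lower. Against layer C the samples lay apart for 6 of 10 genes above and 2 below (Hapln4 and Tnr), and for 19.3% and 16.6% of all genes. A difference of any kind among the 3 layers was found for 7 of 10 genes, and for 18.5% of all genes. These comparisons share the layer A samples and are not independent. The median log2 fold change over the highest transcripts of all genes was -0.16 for layer A over layer B and -0.02 for layer A over layer C. In tissue of mixed cells, fewer cells of a type and less RNA per cell cannot be told apart.

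**Figure D1:**
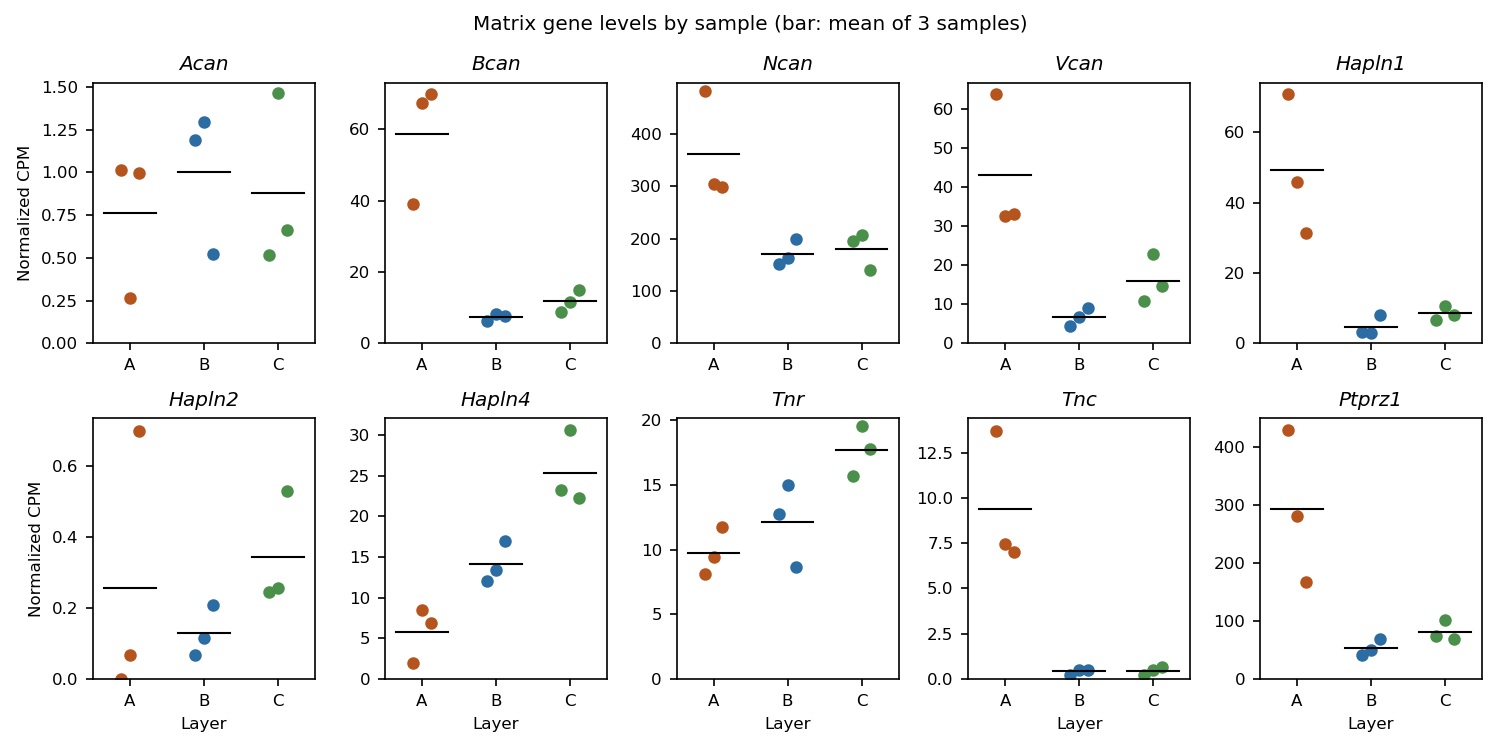
Normalized CPM (vertical axis, a separate scale for each gene, starting at 0) of the 10 matrix genes in layers A, B and C. Each point is a sample and each bar the mean of 3 samples. All 3 points of layer A lie above those of layers B and C for Bcan, Ncan, Vcan, Hapln1, Tnc and Ptprz1, and below them for Hapln4.

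Among the lecticans, Bcan (brevican, a short lectican abundant in the adult brain) had 39.0, 67.3 and 69.9 normalized CPM in replicates 1, 2 and 3 of layer A. It had 6.31, 8.22 and 7.76 in layer B and 8.78, 11.5 and 14.9 in layer C. Every layer A sample thus exceeded every sample of the other layers. On the log2 scale layer A was higher by 2.98 over layer B (SE 0.340, adjusted p = 0.000188) and 2.32 over layer C (SE 0.331, adjusted p = 0.0018, edgeR). Both calls held when any sample was left out.

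Vcan (versican, a large lectican of loose matrix and of white matter) had 63.8, 32.6 and 33.1 normalized CPM in layer A. It had 4.29, 6.79 and 8.95 in layer B and 10.7, 22.8 and 14.6 in layer C. The 3 layers did not overlap, with layer B lowest and layer C between. In log2 terms layer A exceeded the others by 2.69 over layer B (SE 0.407, adjusted p = 0.0006) and 1.43 over layer C (SE 0.390, adjusted p = 0.0277). The call against layer B held when any sample was left out. The call against layer C was lost without layer A replicate 1 (adjusted p = 0.149), layer C replicate 1 (0.161) or layer C replicate 3 (0.0849), with log2 fold changes of 1.04, 1.20 and 1.37 in those fits.

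Vcan is spliced into forms that differ in the 2 large exons that carry its chondroitin sulfate chains, GAG-α (2880 bases) and GAG-β (5217 bases). V0 holds both, V1 only GAG-β, V2 only GAG-α and V3 neither. The junctions that tell them apart follow the same shared exon. They are shown because they define the forms, although the counts below were made per transcript and not per junction, with 20 bases on each side, 5′ to 3′ on the transcript, and the exon after the junction in capitals (GENCODE M21 transcripts, GRCm38, minus strand). The shared exon lies at chr13:89712205-89712498, GAG-α at chr13:89702918-89705797 and GAG-β at chr13:89688285-89693501.
V0 and V2 (into GAG-α): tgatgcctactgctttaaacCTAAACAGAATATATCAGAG
V1 (into GAG-β): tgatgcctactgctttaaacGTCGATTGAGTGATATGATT
V3 (into the next shared exon): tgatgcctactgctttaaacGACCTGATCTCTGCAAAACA

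The V0, V1, V2 and V3 transcripts were counted separately, and the V0 count was the highest and the V3 count the lowest in every sample. The reads of an exon that several transcripts share may stand in each of their counts, so the forms are not independent of each other. V0 holds both GAG exons and V3 neither, so shared reads could put V0 highest and V3 lowest whichever form predominates. All 8 tested Vcan transcripts passed the test between layers A and B, with V0 at a log2 fold change of 2.69, V1 at 2.92, V2 at 2.78 and V3 at 2.68. Against layer C 6 of the 8 passed, with V0 at 1.43, V1 at 1.49, V2 at 1.29 and V3 at 1.46, while the short transcripts Vcan-204 (1.40, adjusted p = 0.114) and Vcan-208 (1.28, 0.0819) did not. The counts that V2 and V1 had beyond V3 were divided by the additional length of the annotated transcripts. These lengths were 3381 and 6011 bases, more than the GAG exons alone. The ratio of the V2 value, which covers GAG-α, to the V1 value, which covers GAG-β, was 1.54 to 1.62 in layer A. It was 1.11 to 2.75 in B and 1.56 to 2.44 in C. The ranges overlapped, and the ratio was above 1 in 9 of 9 samples. Reads of V0 may stand in both values, so the ratio compares coverage of the 2 regions and not the amounts of the forms.

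Ncan (neurocan, which is abundant in the developing brain) had 481, 305 and 299 normalized CPM in layer A. It had 151, 163 and 200 in layer B and 196, 207 and 139 in layer C. Every layer A sample was again the higher, but by less than for Bcan and Vcan. Its log2 fold change was 1.08 over layer B (SE 0.296, adjusted p = 0.0204) and 1.00 over layer C (SE 0.296, adjusted p = 0.0399). These calls were sensitive to single samples. Against layer B the call was lost without layer A replicate 1 (adjusted p = 0.0999), layer B replicate 1 (0.0933) or layer B replicate 2 (0.0616). Against layer C it was lost without layer A replicate 1 (0.166) or 2 (0.0662), layer B replicate 1 (0.062), or layer C replicate 1 (0.139), 2 (0.0692) or 3 (0.14), and with no filter on low counts (0.0557).

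Acan (aggrecan, the lectican that best marks perineuronal nets) was low in all layers, with 4 to 78 counts per sample. It had 1.02, 0.267 and 0.997 normalized CPM in layer A, 1.19, 1.29 and 0.520 in layer B and 0.515, 1.47 and 0.664 in layer C. The layers overlapped. The log2 fold change of layer A was -0.38 over layer B (95% interval -1.71 to 0.95, adjusted p = 0.746) and -0.14 over layer C (-1.49 to 1.22, adjusted p = 0.932), so that changes of more than 2-fold lie inside the intervals.

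Of the link proteins, Hapln1 (the cartilage link protein, also part of neuronal nets) had 70.8, 45.8 and 31.5 normalized CPM in layer A. It had 3.23, 2.84 and 8.06 in layer B and 6.58, 10.7 and 8.15 in layer C. The lowest layer A sample exceeded the highest sample of the other layers. Its log2 fold change was 3.38 over layer B (SE 0.452, adjusted p = 0.000279) and 2.54 over layer C (SE 0.437, adjusted p = 0.00341), and both calls held when any sample was left out. Without layer B replicate 3, in which the gene was highest within its layer, the difference from layer B was 4.07.

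Hapln4 (the brain link protein that accompanies brevican at synapses and nets) ran the other way. It had 2.03, 8.55 and 6.93 normalized CPM in layer A, 12.1, 13.4 and 16.9 in layer B and 23.2, 30.6 and 22.3 in layer C. The layers did not overlap and were ordered A, B, C from low to high. The log2 fold change of layer A over layer C was -2.10 (SE 0.425, adjusted p = 0.00707), and it passed when any sample was left out. The log2 fold change over layer B was -1.26 (SE 0.415), with an adjusted p of 0.0491 next to the threshold. That call held without layer A replicate 2 (adjusted p = 0.0399) and was lost in each of the other 8 fits that left out a sample, with adjusted p-values of 0.0603 to 0.126. The log2 fold change was then -1.62 to -0.87.

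Hapln2 (the link protein of nodes of Ranvier) was near the limit of detection, with 0, 1 and 28 counts in layer A, 3, 5 and 10 in layer B and 10, 4 and 62 in layer C. Its highest transcript was a retained-intron form, and its coding transcript had too few counts to be tested. The layers A and B overlapped, as did A and C, and no difference passed (adjusted p = 0.456 and 0.924).

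The tenascins separated. Tnc (tenascin-C, which is plentiful in development and in adults is made by subsets of glia) had 13.7, 7.48 and 7.01 normalized CPM in layer A. It had 0.247, 0.508 and 0.520 in layer B and 0.245, 0.510 and 0.656 in layer C, from 8 to 77 counts per sample. The lowest layer A sample was thus more than 10-fold above the highest sample elsewhere. For layer A the log2 fold change was 4.45 over layer B (SE 0.522, adjusted p = 0.0002) and 4.28 over layer C (SE 0.521, adjusted p = 0.000982), and both calls held when any sample was left out. All 4 Tnc transcripts passed in both comparisons, but they may share reads and are not independent of each other. The exons of the transcript used share 176 bases with the gene 8030451A03Rik, whose reads cannot be told apart there.

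Tnr (tenascin-R, the tenascin of adult nets) had 8.13, 9.42 and 11.7 normalized CPM in layer A, 12.8, 15.0 and 8.68 in layer B and 15.7, 19.6 and 17.8 in layer C. Layer A overlapped layer B and lay below every sample of layer C. The log2 fold change over layer B was -0.31 (95% interval -0.98 to 0.36, adjusted p = 0.564). Over layer C it was -0.85 (SE 0.317, adjusted p = 0.101), and it passed without layer B replicate 3 (-0.85, adjusted p = 0.0393).

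Ptprz1 (receptor protein tyrosine phosphatase zeta, a chondroitin sulfate proteoglycan that binds tenascins, contactin and pleiotrophin) had 430, 281 and 168 normalized CPM in layer A. It had 41.3, 50.5 and 68.5 in layer B and 73.9, 102 and 69.2 in layer C. The layer A samples varied widely and all exceeded those of the other layers. The log2 fold change was 2.46 over layer B (SE 0.363, adjusted p = 0.000528) and 1.85 over layer C (SE 0.356, adjusted p = 0.00566). The call against layer C was lost without layer C replicate 1 (1.78, adjusted p = 0.0511).

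**Figure D2:**
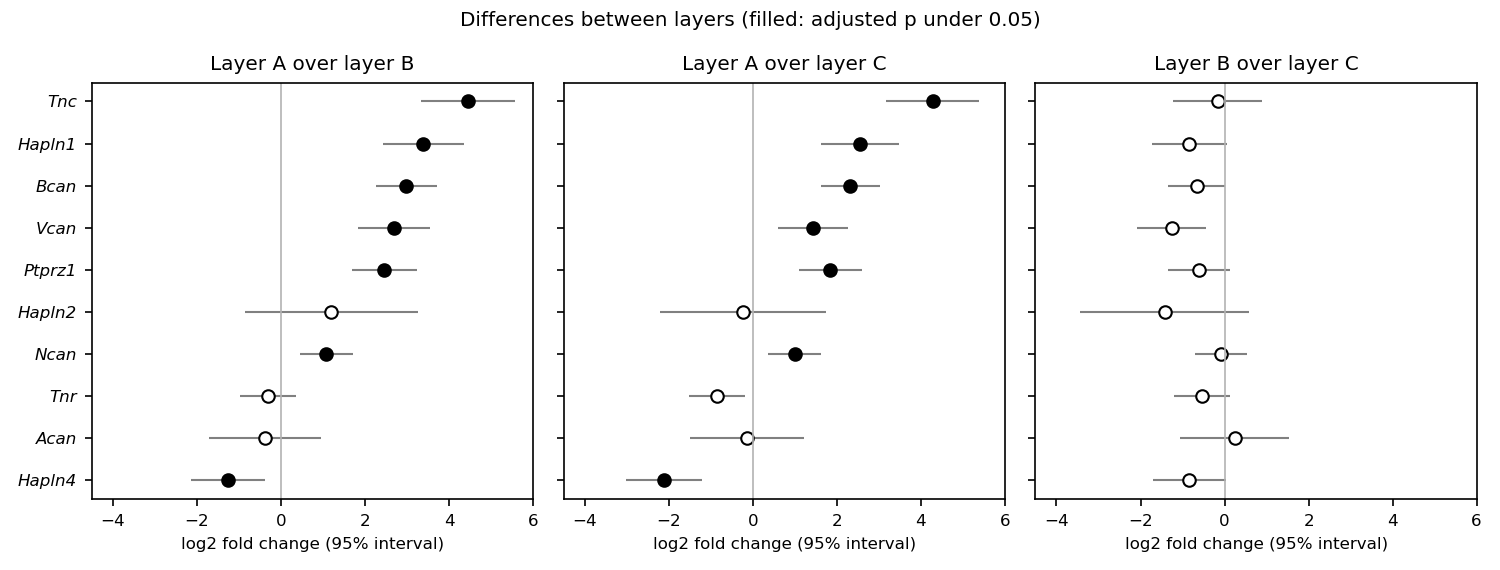
Log2 fold change of each gene for layer A over B, layer A over C and layer B over C (horizontal axis), with 95% intervals as lines, and filled circles for an adjusted p under 0.05 (edgeR). Tnc, Hapln1, Bcan, Vcan, Ptprz1 and Ncan lie to the right and Hapln4 to the left in the first 2 panels, and no circle is filled in the panel of layer B over C.

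Between layers B and C none of the 10 genes passed the test (edgeR), as was so for all genes (0% higher and 0% lower). An unadjusted p under 0.05 was found for 1 of 10 genes, Vcan, with a log2 fold change of layer B over layer C of -1.26 (SE 0.389, adjusted p = 0.762), and for 2316 of 56416 transcripts. DESeq2 called 130 transcripts and none of the 10 genes. Every layer B sample lay below every layer C sample for 6 of 10 genes, namely Bcan, Vcan, Hapln2, Hapln4, Tnr and Ptprz1, whereas this was so for 4.99% of all genes. The reverse held for none of the 10 and for 4.66% of all genes. The log2 fold changes of these 6 ran from -1.42 for Hapln2 to -0.54 for Tnr. Hapln2 was near the limit of detection, with 3, 5 and 10 counts in layer B and 10, 4 and 62 in layer C. These raw counts overlapped. The highest layer B sample had 0.208 normalized CPM and the lowest layer C sample 0.245, each from 10 counts. The separation of Hapln2 therefore rested on the scaling between samples. Raw counts of Bcan, Vcan, Hapln4, Tnr and Ptprz1 also overlapped between these layers, so their separation rested on the scaling too. After scaling, the highest layer B and lowest layer C samples were close for Ptprz1 (68.5 and 69.2 normalized CPM), Tnr (15.0 and 15.7) and Bcan (8.22 and 8.78). They were further apart for Vcan (8.95 and 10.7) and Hapln4 (16.9 and 22.3).

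Divided by transcript length, levels can be set side by side between genes, but only roughly. Vcan was counted as 9 transcripts and Tnc and Hapln2 as 4 each, and how reads shared by transcripts were counted is not known. The Hapln2 transcript used is a retained-intron form. In layer A the order of the mean RPKM (normalized CPM per kilobase) was Ncan (50.3 ± 14.4, SD, n = 3), Ptprz1 (36.3 ± 16.3), Bcan (18.7 ± 5.45), Hapln1 (8.63 ± 3.48), Vcan (3.47 ± 1.44), Tnr (2.21 ± 0.414), Hapln4 (1.60 ± 0.930), Tnc (1.32 ± 0.527), Hapln2 and Acan. In layer A the ranges of Ncan and Ptprz1, of Ptprz1 and Bcan, and of each neighbouring pair from Vcan down to Tnc overlapped. In layers B and C Ncan was again the highest and Ptprz1 next, with no overlap, followed by Hapln4, with 3.88 ± 0.683 RPKM in layer B and 6.95 ± 1.26 in layer C. Tnr came after it in both layers, its range overlapped that of Bcan, the next in order, and in layer B it overlapped that of Hapln4 as well. Hapln4 therefore stood below Hapln1 in layer A and above it in layers B and C. Acan stayed at 0.0363 to 0.199 RPKM in all samples.

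Within each family the shares of RPKM, which carry the same limits, shifted. Among the 4 lecticans Ncan gave 62.4 to 79.1% of the summed RPKM in layer A, 87.1 to 89.5% in B and 76.3 to 87.9% in C. Bcan gave 14.7 to 33.4%, 7.97 to 10.1% and 9.04 to 18.7%. Of the link proteins Hapln1 gave 71.5 to 95.7% in layer A, 11.8 to 23.0% in B and 15.1 to 18.4% in C, and Hapln4 most of the rest. Tnc gave 27.1 to 51.2% of the tenascin RPKM in layer A, 1.19 to 3.60% in B and 0.963 to 2.25% in C.

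Ratios of counts within a sample do not depend on the scaling between samples. The log2 ratio of Hapln1 to Hapln4 was 5.09, 2.42 and 2.18 in layer A, -1.90, -2.24 and -1.07 in layer B and -1.82, -1.51 and -1.45 in layer C. The sign was reversed between layer A and the other layers in every sample. Differences among layers were tested by exact permutation over all assignments of the 9 samples to layers, one-sided for large differences. For this ratio the exact permutation test gave p = 0.025 (adjusted p = 0.025 over the 4 ratios tested). The ratios use the same counts as the calls on single genes above, so they are not independent of those calls. The ratio of Tnc to Tnr was 0.75, -0.33 and -0.74 in layer A, against -5.63 to -4.03 in layer B and -5.93 to -4.75 in layer C (exact permutation p = 0.0179, adjusted 0.0238). The ratio was thus higher in every layer A sample than in any other. These are ratios of counts without correction for length.

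The ratio of Acan to Bcan was -5.21, -7.81 and -6.11 in layer A, against -3.87 to -2.40 in layer B and -4.47 to -2.95 in layer C (exact permutation p = 0.00714, adjusted 0.0143). The ratio of Vcan to Ncan was -2.91, -3.23 and -3.18 in layer A, -5.13 to -4.48 in B and -4.19 to -3.18 in C (p = 0.00714, adjusted 0.0143, exact permutation test). Here layers A and C overlapped and layer B lay below both. For a single pair of layers, 3 samples against 3, an exact test cannot go below p = 0.1.

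**Figure D3:**
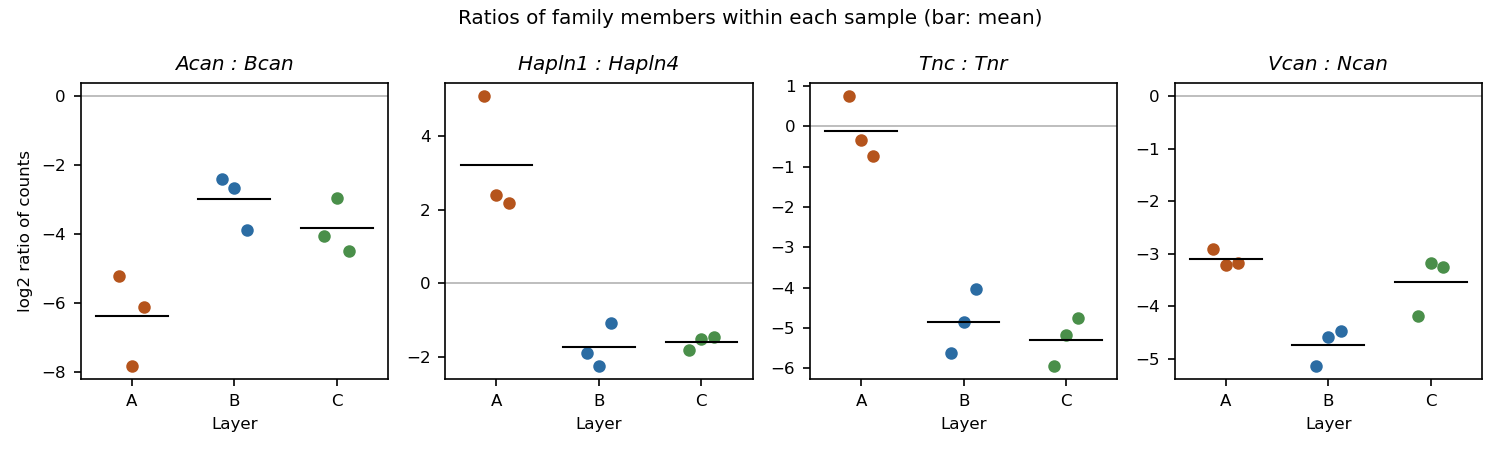
Log2 ratio of the counts of 2 genes within each sample (vertical axis, a separate scale for each pair, with the grey line at equal counts) in layers A, B and C, with bars at the mean of 3 samples. The Hapln1 to Hapln4 ratio is above 0 in the 3 layer A samples and below 0 in the other 6, and the Tnc to Tnr ratio lies near 0 in layer A and below -4 elsewhere.

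Each lectican gene has a link protein gene as its neighbour on the chromosome (GRCm38). Vcan (chr13:89655312-89742509, minus strand) and Hapln1 (chr13:89539796-89611652, plus strand) lie 43.7 kb apart, and both were higher in layer A. Ncan (chr8:70093085-70120873, minus strand) and Hapln4 (chr8:70083457-70090862, plus strand) lie 2.2 kb apart and differed from layers B and C in opposite directions. Bcan (chr3:87987531-88000230) and Hapln2 (chr3:88021750-88027583) lie 21.5 kb apart on the minus strand, and only Bcan passed. Acan (chr7:79053483-79115099, plus strand) ends 2 bases from Hapln3 on the opposite strand, and neither passed. Hapln3 had log2 fold changes of 1.47 over layer B (adjusted p = 0.149) and 0.59 over layer C (0.646). In unstranded libraries, reads that run past the end of Acan or Hapln3 cannot be told apart by strand.

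RefSeq promoters (250 bases before to 50 after the start, GRCm38.p6) were given for 9 of the 10 genes. The 4 printed here are those of the genes with the largest increase in layer A over layer B whose promoter start lies within 150 bases of the start of a transcript in the files. For Tnc that is the transcript Tnc-204, and the start of Tnc-203, whose values are given above, lies 26290 bases away. They are shown because these genes were higher in the same layer. Capitals mark matches on either strand to the TATA box letters TATAAA, to the GC box letters GGGCGG, to the letters of the CCAAT box, to the AP-1 letters TGACTCA, or to the SOX letters ACAAAG.
Tnc, chr4:64046966-64047265, minus strand: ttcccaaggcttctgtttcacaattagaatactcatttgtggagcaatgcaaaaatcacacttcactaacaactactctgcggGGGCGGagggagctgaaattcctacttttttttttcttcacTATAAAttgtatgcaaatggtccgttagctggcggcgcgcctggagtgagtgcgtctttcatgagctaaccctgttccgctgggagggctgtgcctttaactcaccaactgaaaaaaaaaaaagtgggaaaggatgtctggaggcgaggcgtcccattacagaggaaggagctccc
Bcan, chr3:88000307-88000606, minus strand: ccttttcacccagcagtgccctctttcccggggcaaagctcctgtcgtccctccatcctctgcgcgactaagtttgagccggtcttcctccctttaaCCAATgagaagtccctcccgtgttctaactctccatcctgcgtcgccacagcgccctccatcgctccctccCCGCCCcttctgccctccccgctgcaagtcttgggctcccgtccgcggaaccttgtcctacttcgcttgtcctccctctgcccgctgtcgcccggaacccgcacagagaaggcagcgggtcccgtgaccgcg
Vcan, chr13:89742463-89742762, minus strand: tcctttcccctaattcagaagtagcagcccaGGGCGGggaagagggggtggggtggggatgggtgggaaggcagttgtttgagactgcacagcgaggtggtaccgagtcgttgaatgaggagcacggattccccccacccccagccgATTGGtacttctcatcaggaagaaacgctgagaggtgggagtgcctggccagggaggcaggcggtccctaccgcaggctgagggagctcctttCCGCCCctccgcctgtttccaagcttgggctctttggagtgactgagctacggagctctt
Ptprz1, chr6:22875252-22875551, plus strand: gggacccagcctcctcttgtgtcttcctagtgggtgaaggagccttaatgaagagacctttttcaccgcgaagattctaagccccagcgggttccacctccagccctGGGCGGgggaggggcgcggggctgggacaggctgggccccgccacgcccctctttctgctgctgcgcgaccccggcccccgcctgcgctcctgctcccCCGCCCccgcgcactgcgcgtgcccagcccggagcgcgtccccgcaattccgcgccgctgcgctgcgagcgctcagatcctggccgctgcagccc

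A GC box match was found in 5 of the 6 genes that were higher in layer A, against 35.66% of 32851 promoters. The first count is per gene, and Tnc has 2 promoters, both with a match. The GC content of these promoters was 71.7% for Ptprz1, 64.0% for Bcan, 61.0% for Vcan, 56.7% for Ncan, 54.3% for Hapln1, the gene without a match, and 47.3% and 54.0% for the 2 listed Tnc promoters, and the median of all promoters was 52.7%. The start of the Hapln1 promoter lies 840 bases from the start of its counted transcript. Acan, which did not pass, also held GC box matches. TATAAA was found in the promoters of Tnc and Ncan (13.62% of all promoters). CCAAT was found in those of Bcan and Vcan, and of Acan and Hapln2, which did not pass (37.41% of all promoters). No promoter of the 9 genes held TGACTCA (5.2% of all). Such matches describe letters and not binding sites.

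The wider matrix pathway was examined with lists of genes, whose counts are to be read against the 13.2% of all genes higher and 7.65% lower in layer A than B, the 9.33% and 5.47% against C, and the medians over all genes of -0.16 and -0.02. Of 7 tested relatives of the 10 genes, between layers A and B 1 passed as higher in A and 1 as lower, with a median log2 fold change of 0.89. Cspg4 (NG2, a proteoglycan of oligodendrocyte precursors and pericytes) was 2.57 higher (adjusted p = 0.000424), with 10.3 to 10.8 normalized CPM in layer A, 1.26 to 2.29 in B and 3.75 to 5.93 in C, and 1.12 over layer C (adjusted p = 0.0536). Spock1 (testican-1) was lower in layer A, with log2 fold changes of -1.23 over layer B (adjusted p = 0.0397) and -1.43 over layer C (0.0268). Cspg5 (neuroglycan C) did not pass (0.89, adjusted p = 0.201, and 1.14, adjusted p = 0.117), but it did in both comparisons without layer B replicate 3 (1.91, adjusted p = 0.00046, and 1.15, 0.0057), as Cspg4 then did over layer C (0.017). The list then held 2 genes higher than in layer B and 3 higher than in layer C, where none had passed as higher with all samples.

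Of 20 tested genes of chondroitin sulfate synthesis, 2 were higher in layer A in the comparison with B and none lower, a share near that of all genes. The log2 fold changes ran from -1.24 to 2.28 around a median of 0.05. The genes that passed were Chst11, which sulfates the chain (1.63, adjusted p = 0.00615, and 0.61 over layer C, adjusted p = 0.318), and Chsy1, which extends it (1.03, adjusted p = 0.0454, and 1.10 over layer C, adjusted p = 0.0449). Of 8 tested hyaluronan genes 2 were higher against each layer, with a median of 0.55 over layer B. Hyal1, a hyaluronidase, was higher by 3.13 over layer B (adjusted p = 0.00126) and 2.71 over layer C (0.00592). Cd44, a hyaluronan receptor, was higher by 3.28 (adjusted p = 0.00589) and 2.77 (0.0205). The synthase Has3 did not pass (0.53, adjusted p = 0.619), and Has2 had too few counts to be tested, with 0.249 to 0.762 normalized CPM in layer A and 0.0491 to 0.255 in the other layers.

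Of 13 tested matrix proteases and inhibitors, in the comparison with layer B 4 were higher and 2 lower in A, with a median of 1.15. Timp3, an inhibitor of metalloproteinases that is bound to matrix, had 163 to 283 normalized CPM in layer A and 13.1 to 37.6 in the other samples (3.27 over layer B, adjusted p = 0.000227, and 2.63 over layer C, 0.00205). Timp4 was higher by 1.69 (adjusted p = 0.00734) and 1.50 (0.0208), and Adamts9, a protease that cleaves lecticans, by 1.67 (0.0314) and 1.84 (0.0292). The main brevican-cleaving proteases did not pass over layer B, with Adamts4 at 1.15 (adjusted p = 0.306) and Adamts5 at 1.39 (0.116). Over layer C their values were -0.27 (0.864) and -0.99 (0.304), and in the 3-layer test Adamts5 passed (0.0275). Without layer B replicate 3, Adamts5 passed over layer B (2.00, adjusted p = 0.0263). Timp2 was lower, by -0.84 (adjusted p = 0.0435) over layer B and -1.30 (0.00806) over layer C, and the call against layer B was lost without layer B replicate 3 (-0.69, adjusted p = 0.093). Mmp9, which also passed against layer B, rested on 0, 0 and 1 counts in layer A, against 10, 10 and 24 in layer B and 4, 0 and 11 in layer C, and it too was lost without that sample (adjusted p = 0.0513). The list then held 6 genes higher and none lower against layer B.

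Of 16 tested receptors and binding partners, 3 were higher and 7 lower in the comparison of A with B, with a median of -0.72. Lower in layer A were Nptx2 (neuronal pentraxin 2, -2.71, adjusted p = 0.00287), Rtn4r (the Nogo receptor, -2.44, 0.00341), its relative Rtn4rl1 (-1.88, 0.0046) and Ptprs, a receptor for chondroitin sulfate (-1.06, 0.0302), and each also passed against layer C. Higher were Itga9, an integrin subunit that binds Tnc (1.79, adjusted p = 0.0131), and the Ptprz1 ligands Mdk (midkine, 2.08, 0.015) and Ptn (pleiotrophin, 1.63, 0.0236). Against layer C, Mdk passed (1.83, adjusted p = 0.0392) and Itga9 (0.83, 0.273) and Ptn (1.07, 0.154) did not. The contactin gene Cntn1 did not pass (-0.74, adjusted p = 0.107, and -0.81, 0.0965).

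**Figure D4:**
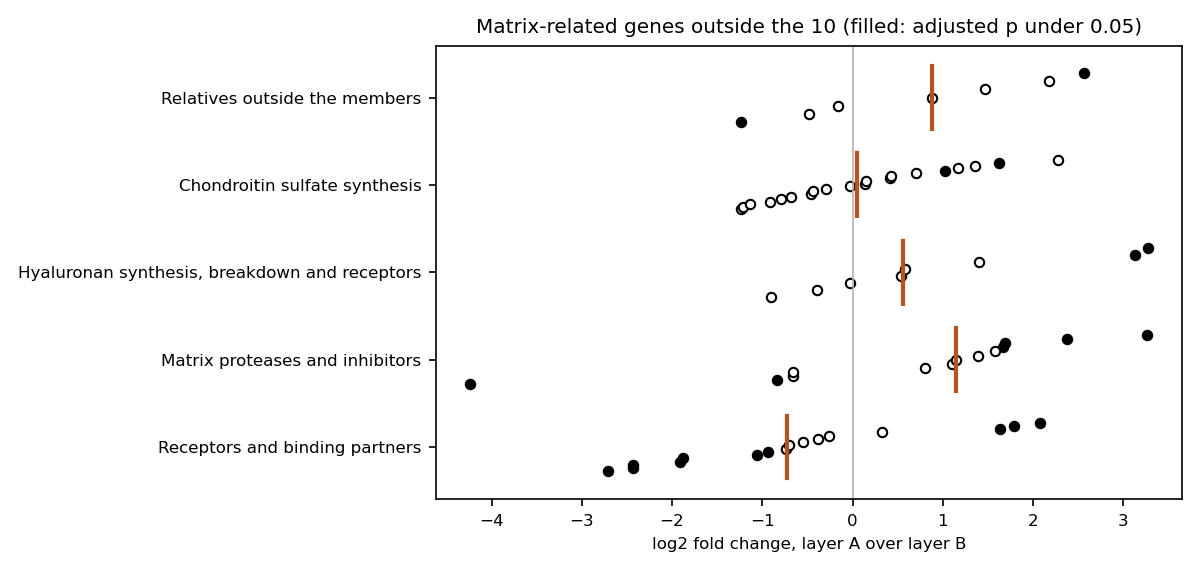
Log2 fold change of layer A over layer B (horizontal axis) for each tested gene of the 5 lists, a point per gene, filled for an adjusted p under 0.05 (edgeR), with an orange bar at the median of each list. The medians run from -0.72 for receptors and binding partners to 1.15 for matrix proteases and inhibitors.

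Markers of other cell types also differed between the layers, with the same shares of all genes as background. All 10 astrocyte markers passed as higher in A in both comparisons, with median log2 fold changes of 3.21 and 2.60, and Gfap at 4.29 (adjusted p = 9.7e-05) and 4.34 (8.9e-05). They summed to 4542 to 9977 normalized CPM in layer A, 644 to 1034 in B and 1145 to 1532 in C. Of 6 tested oligodendrocyte precursor markers, 6 were higher than in layer B and 2 than in layer C, with sums of 88.0 to 129, 18.1 to 32.6 and 41.4 to 57.0. Pdgfra was higher by 2.75 (adjusted p = 0.000273) and 1.62 (0.0093).

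Of 8 vascular markers, 7 were higher than in layer B and 6 than in layer C, with sums of 212 to 370 in layer A, 18.8 to 58.5 in B and 49.4 to 69.0 in C. All 6 meningeal fibroblast markers were higher in both comparisons, with sums of 29.6 to 74.8, 0.623 to 3.79 and 1.02 to 2.44. None of these markers was at 0 in every sample of a layer. Of 10 oligodendrocyte markers 2 were higher than in layer B and none than in layer C, and Mbp did not pass (0.79, adjusted p = 0.438). Without layer B replicate 3, 8 were higher than in layer B, Mbp among them (1.77, adjusted p = 0.0447). Of 10 GABAergic neuron markers 1 was higher than in layer B and 2 were lower than in layer C. Neither Gad1 (0.53, adjusted p = 0.573) nor Pvalb (-2.47, 0.097), which marks the interneurons most often enclosed by nets, passed against layer B. Without layer B replicate 3 the counts became 4 higher than in layer B, with Gad1 at 2.02 (0.000498), and 4 lower than in layer C, with Pvalb at -2.62 (0.0102). Over layer B, Pvalb was then at -0.15 (adjusted p = 0.921, edgeR), so its lower value there rested on that sample. Of 8 glutamatergic neuron markers 1 (Camk2a) was higher and 4 were lower in layer A in each comparison. Their sum was nonetheless highest in layer A, at 2381 to 4252 normalized CPM, against 1297 to 1345 in B and 1215 to 1752 in C. Slc17a7 did not pass against layer B (-1.10, adjusted p = 0.0504) unless layer B replicate 3 was left out (-1.27, 0.0181). The astrocyte, vascular and meningeal markers moved with Tnc, Hapln1, Bcan, Vcan, Ptprz1 and Ncan. The precursor markers did so against layer B, but only 2 of 6 passed against layer C. The part of these cell types in the differences was not tested. The share of mitochondrial ribosomal RNA was above that of layer B in every layer A sample, and when mitochondrial transcripts were left out before scaling, the 6 genes were still called in both comparisons, Hapln4 was still called against layer C, and its call against layer B was lost (-1.21, adjusted p = 0.0624).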

How the data were processed

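RNA from laser-captured layers was extracted, amplified with the Ovation system and made into strand non-specific libraries. The authors deposited raw counts per Ensembl transcript for each sample, without normalization, from reads aligned to mm10 with Bowtie. The submitters' processing notes also name HTSeq 0.5.3 and bcl2fastq 1.8.4, and the counting settings are not given in the sources used here. Amplified reads without molecular identifiers are not independent molecules, and the floor, which covers counting error only, was set at 3 counts. It corresponds to 0.0256 to 0.254 normalized CPM.

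Of 95533 identifiers, 82807 matched GENCODE M21 (GRCm38). The 56416 transcripts that reached 10 counts in 3 or more samples were scaled by TMM and fitted over all 9 samples with edgeR 4.0.16 in R 4.3.3 (quasi-likelihood F tests, Benjamini-Hochberg adjustment, threshold 0.05). DESeq2 1.42.0 was an alternative. Normalized CPM and RPKM were computed from the counts. Ratios used 0.5 added counts. The code was tested on simulated counts. List genes were also fitted without layer B replicate 3, which was chosen after seeing the data. The text names the 10 genes, up to 3 genes of smallest p in each direction between layers A and B from each pathway list, and a fixed set of further genes, and other list genes are counted. Camk2a was named after its values were seen. The genes and lists were chosen with earlier results of these data known.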

Additional observations from a re-analysis of the deposited data

How the results depend on the processing

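Alternatives changed the normalization, tool, filter, samples in the fit, unit of counting or mitochondrial transcripts, or left out a sample. Of 530 log2 fold changes of the 10 genes under an alternative, 490 kept direction and side of the threshold, 27 lost the call, 1 gained it and 12 reversed, and all reversals were of uncalled differences with a sample left out. With a sample left out, the log2 fold change of Acan ran from -0.67 to 0.0082 (A over B), -0.43 to 0.37 (A over C) and -0.088 to 0.75 (B over C), of Hapln2 from -1.76 to 1.80 (A over B) and -3.18 to 0.27 (A over C), and of Tnc from -0.53 to 0.24 and Ncan from -0.26 to 0.032 (B over C). The number of the 10 genes lower in A in the comparison with B was 0 in place of 1 with RLE normalization, with at least 10 counts in all 9 samples, with the 6 samples of the 2 layers alone and without mitochondrial transcripts, the change being Hapln4, and 0 to 1 with a sample left out. Against layer C, 3 to 6 were higher and 1 to 2 lower with a sample left out. Transcripts called were 9329 (A and B), 6389 (A and C), 0 (B and C) and 8061 (any difference). They became 4918, 3637, 5 and 4388 with counts summed by gene and 3695, 2777, 4 and 3305 with 1 transcript per gene, where fewer features were tested. Between B and C they were 130 with DESeq2 and 10 with no filter. With a sample left out they ran from 5686 to 11365, 1365 to 9751, 0 to 17 and 4164 to 11350. The cause of these changes was not tested. All 4 ratios kept their call.

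The replicate numbers gave no clear sign of pairing: 4 of 9 same-numbered pairs had deviations correlated above 0.1 (range -0.19 to 0.24). With 3 samples per layer, such correlations cannot settle whether same-numbered samples were paired. Replicate 3 had the largest total count and the highest sum of oligodendrocyte markers in every layer. With the replicate block, 9184, 6384, 0 and 7903 transcripts were called, and of the calls on the 10 genes that of Ncan against layer C was lost (0.99, adjusted p = 0.0617, edgeR). Low counts limit what can be said of Acan and Hapln2.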

Other observations

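Some matrix genes in layer B replicate 3, the sample that stood apart, also differed from the other 2 samples of its layer. Acan had 0.520 normalized CPM there, against 1.19 and 1.29, and Tnr 8.68 against 12.8 and 15.0. Hapln1 had 8.06 against 3.23 and 2.84, and Cspg5 67.9 against 17.1 and 18.0. Pvalb had 4.62 normalized CPM, against 0.449 and 0.300. Layers B and C were compared again without this sample. None of the 10 genes passed, with the lowest adjusted p at 0.12 for Hapln1 (log2 fold change of layer B over layer C -1.52, edgeR) and then 0.134 for Vcan (-1.58), and 17 transcripts of all genes were called.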
